A study of Rattus norvegicus with 36 samples.

Results

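rno-miR-207 is a mature rat microRNA (miRNA), measured here by small RNA sequencing in 3 brain regions of 12 male heterogeneous stock rats. It is 1 of the 723 mature miRNAs in the count table and 1 of the 457 that passed a filter on low counts, and it was chosen by its own read counts, whose response to cocaine had already been seen to differ between regions in these same libraries. Its changes between cocaine groups are therefore given as descriptions with standard errors and no test. The choice was made on the response to cocaine and not on the level of a region averaged over the groups, so the regional levels were tested. These averages are built from the same libraries, so the tests are not wholly free of the choice. Earlier results of these data were known when these tests were chosen.

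The regions were the infralimbic cortex (IL) and the prelimbic cortex (PL), both parts of the medial prefrontal cortex, and the nucleus accumbens (NAc), a ventral striatal region that both cortices project to. Naïve rats had no cocaine. Withdrawal rats had escalated their cocaine self-administration and were killed 16 h after the last session according to the labels, an interval that the methods of the study give as slightly longer. Abstinence rats had escalated their intake likewise and then had 4 weeks without cocaine. Each group held 4 rats and each rat gave 1 library per region, so there were 36 libraries of dissected bulk tissue. The naïve rats did not go through the self-administration sessions that the withdrawal and abstinence rats shared, so cocaine itself cannot be told apart from the rest of that procedure.

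miRNAs are short RNAs cut from a hairpin precursor and loaded into an Argonaute protein, where the bases near the 5′ end, the seed, pair with messenger RNAs and lower their translation or stability. Many are abundant in neurons and respond to neuronal activity, and several have been studied in the prefrontal cortex and striatum of animals that took cocaine. miR-207 is one of the less studied members of the class and has been examined in rodents mainly in brain ischaemia and stress-related behaviour.

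The mature sequence is shown because its base composition is set beside a GC measure of the libraries further on, with the seed (bases 2 to 8) in capitals, from RefSeq on GRCr8, chr5:60638847-60638869, plus strand.
rno-miR-207: cUUCUCCUggcucuccucccuuu
The hairpin precursor, from the same source, has the mature arm in capitals and lies at chr5:60638796-60638873.
rno-mir-207 hairpin: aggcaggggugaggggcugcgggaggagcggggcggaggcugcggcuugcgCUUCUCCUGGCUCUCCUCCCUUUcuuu
The mature arm sits on the 3′ side of the hairpin, from base 52 on. It holds 0 A, 11 C, 2 G and 10 U, so 91.3% of its bases are pyrimidines. The median among the 645 names of the table that matched a RefSeq sequence was 50%, and 0 of them had a higher share. Its GC share was 56.5%, against a median of 47.6%, and the hairpin reached 69.2%.

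No other matched miRNA had the same bases 2 to 8 or even 2 to 7, so rno-miR-207 has no seed family in these data. The 7 bases of its seed stood outside the seed position in 3 others, shown with those bases in capitals.
rno-miR-186-5p: caaagaaUUCUCCUuuugggcu
rno-miR-29c-5p: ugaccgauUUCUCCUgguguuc
rno-miR-376a-5p: gguagaUUCUCCUucuaugag
In these the 7 bases began at base 8, base 9 and base 7, where they would not act as a seed. Of the 419 hairpins in the RefSeq table, 1 held the mature sequence, so reads of it have a single origin among these hairpins. The gene lies within Dnaja1, which encodes a DNAJ (Hsp40) co-chaperone, with Aptx, a DNA repair gene, Smu1, a splicing factor gene, and B4galt1, a galactosyltransferase gene, as its protein-coding neighbours. There were 0 other miRNA genes within 100 kb.

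rno-miR-207 was rare in every region. In all it had 279 reads among 390477775, or 0.715 CPM (the share of the reads that it took, in units of 1e-06). It was seen in 36 of 36 libraries with 1 to 18 reads and a median of 7, and 26 libraries held under 10 reads. Of the other miRNAs tested, 413 had a higher mean level and 43 a lower one. In the IL 384 of the 457 miRNAs were higher, in the PL 411 and in the NAc 439.

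Library totals ran from 6192155 to 18877136 reads, so 1 read was worth between 0.0530 and 0.161 CPM. At the median count, counting alone gives a standard deviation of 0.55 on the log2 scale, and the pooled standard deviation between rats of the same group and region was 0.62. Counts varied within groups 1.57 times as much as counting error alone would give (chi-square per degree of freedom, 27 df). All intervals of single values are 95% Poisson intervals and cover counting error only. The filter asked for 0.931 CPM in at least 4 libraries. rno-miR-207 reached it in 10, of which 6 were outside the abstinence group of the IL, so it passed without that group. Outside the IL as a whole it passed only at the minimum. The libraries there were the PL of M157 (0.931 CPM, at the cut-off) and M378 (1.67) and the NAc of M366 (0.943) and M472 (0.981).

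The libraries were checked against sets of miRNAs that mark other cell types. Epithelial miRNAs (the miR-200 and miR-183 families) summed to 1862 CPM in the PL and 1387 CPM in the NAc of M172, a withdrawal rat. The next highest library, the PL of the naïve rat M157, had 245 CPM. The IL library of M153, also a withdrawal rat, had 2413 CPM of choroid plexus and ependymal miRNAs against at most 1615 CPM in the other IL libraries. Neuronal miRNAs such as rno-miR-124-3p and rno-miR-9a-5p summed to between 198452 and 455913 CPM in every library. The libraries at the ends of this range are set beside rno-miR-207 further on. No marker that the table lists was at 0 in all 36 libraries. The IL library of M153 and the PL and NAc libraries of M172 are the 3 taken to stand apart, a choice made after seeing the data. The PL library of M157 was kept. So was the IL library of M172, with 164 CPM of epithelial miRNAs against at most 91.7 CPM in the other IL libraries. Values without the 3 libraries therefore still include these. Values without the 3 are given beside many, but not all, of the results that use them. For NAc minus IL only the direction and call without them are given, in the closing section.

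In the IL, the group mean of rno-miR-207 was lowest in naïve rats, higher in withdrawal rats and highest in abstinence rats. Naïve rats had 7 reads (0.823 CPM) in M157, 7 (0.666) in M378, 5 (0.453) in M476 and 4 (0.463) in M480. Withdrawal rats had 18 reads (2.02 CPM) in M153, 7 (0.714) in M366, 7 (0.676) in M172 and 9 (0.999) in M154. Abstinence rats had 16 reads (2.58 CPM) in M170, 11 (1.17) in M363, 13 (1.17) in M472 and 14 (1.68) in M456. All 4 abstinence rats lay above all 4 naïve rats, while withdrawal rats overlapped both, with M153 among the abstinence rats and M366 and M172 among the naïve rats. The mean was 0.601 ± 0.177 CPM in naïve rats, 1.10 ± 0.631 in withdrawal rats and 1.65 ± 0.669 in abstinence rats (SD, n = 4 each).

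In the fit, the IL level was 2.78-fold higher in abstinence than in naïve rats (log2FC = 1.48, SE 0.48). In withdrawal against naïve rats the log2FC was 0.95 (SE 0.47), and in abstinence against withdrawal rats it was 0.53 (SE 0.43). The libraries set against naïve are compared with the same 4 naïve rats, so the values are not independent of each other. Of the other miRNAs, 9 had a larger log2FC for abstinence against naïve in the IL. Groups that did not overlap, with abstinence higher, occurred in 4.38% of all miRNAs tested. Without the M153 library, and without the PL and NAc libraries of M172, the withdrawal value was 0.61 (SE 0.49) and the abstinence value was 1.43 (SE 0.45). With all libraries of M153 left out the withdrawal value was 0.57. Abstinence against withdrawal ran from 0.15 without M170 and 0.19 without M172 to 0.82 without M153.

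In the PL the group mean was highest in naïve rats and lowest in withdrawal rats, with abstinence rats between them. Naïve rats had 7 reads (0.931 CPM) in M157, 14 (1.67) in M378, 6 (0.605) in M476 and 5 (0.553) in M480. Withdrawal rats had 9 reads (0.576 CPM) in M153, 10 (0.530) in M366, 1 (0.0879) in M172 and 5 (0.401) in M154. Abstinence rats had 6 reads (0.625 CPM) in M170, 3 (0.273) in M363, 7 (0.621) in M472 and 7 (0.591) in M456. On this CPM the withdrawal and naïve groups touched only at their edges. The abstinence rats M170, M472 and M456 lay within the naïve range, and the abstinence and withdrawal groups overlapped. The highest naïve value, in M378, stood above every other PL library, and the lowest of all, in M172, came from a library that stands apart by its epithelial miRNAs.

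The PL mean was 0.940 ± 0.514 CPM in naïve, 0.399 ± 0.220 in withdrawal and 0.528 ± 0.170 in abstinence rats (SD, n = 4 each). The log2FC was -1.12 (SE 0.47) for withdrawal and -0.71 (SE 0.48) for abstinence against naïve rats, and 0.41 (SE 0.51) for abstinence against withdrawal. On the scaled log2 CPM used in the fit, a withdrawal rat exceeded a naïve rat in 1 of 16 pairings and an abstinence rat did so in 2 of 16. On the unscaled CPM listed above the counts were 1 of 16 and 5 of 16. All the withdrawal libraries of the PL (11372613 to 18877136 reads) were deeper than all the naïve ones (7517269 to 9911807 reads), and in this comparison the group cannot be told apart from depth. Without the libraries of M153 and M172 that stand apart, the withdrawal value was -0.84 (SE 0.47). With M378 left out, the withdrawal value was -0.62 and the abstinence value -0.13, the nearest to 0 of the values with a rat left out. Abstinence against withdrawal ran from 0.22 without M172 to 0.70 without M153.

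In the NAc both cocaine groups had higher means than the naïve rats. Naïve rats had 3 reads (0.235 CPM) in M157, 4 (0.421) in M378, 5 (0.437) in M476 and 3 (0.270) in M480. Withdrawal rats had 6 reads (0.427 CPM) in M153, 14 (0.943) in M366, 10 (0.848) in M172 and 7 (0.683) in M154. Abstinence rats had 7 reads (0.588 CPM) in M170, 8 (0.786) in M363, 12 (0.981) in M472 and 2 (0.171) in M456. On the scaled log2 CPM used in the fit, every withdrawal rat lay above every naïve rat, but by only a narrow gap, from -1.28 in M378 to -1.18 in M153. On unscaled CPM these neighbours touch, and M476, a naïve rat, lies above M153. Among the abstinence rats, M456 was below all naïve rats and the other 3 were above them.

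The NAc mean was 0.341 ± 0.103 CPM in naïve, 0.725 ± 0.226 in withdrawal and 0.631 ± 0.346 in abstinence rats (SD, n = 4 each). The log2FC was 1.01 (SE 0.50) for withdrawal and 0.95 (SE 0.51) for abstinence against naïve rats. Between abstinence and withdrawal it was -0.07 (SE 0.47). Without the 3 libraries that stand apart these values were 0.91 (SE 0.50), 0.99 (SE 0.48) and 0.08 (SE 0.48). Groups without overlap, with withdrawal higher, occurred in 0.875% of the miRNAs tested in the NAc. At 3 to 5 reads per naïve library, the naïve pool of 15 reads has an interval of 0.187 to 0.552 CPM, which the withdrawal pool of 37 reads (0.512 to 1.00 CPM) still overlaps.

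**Figure D1:**
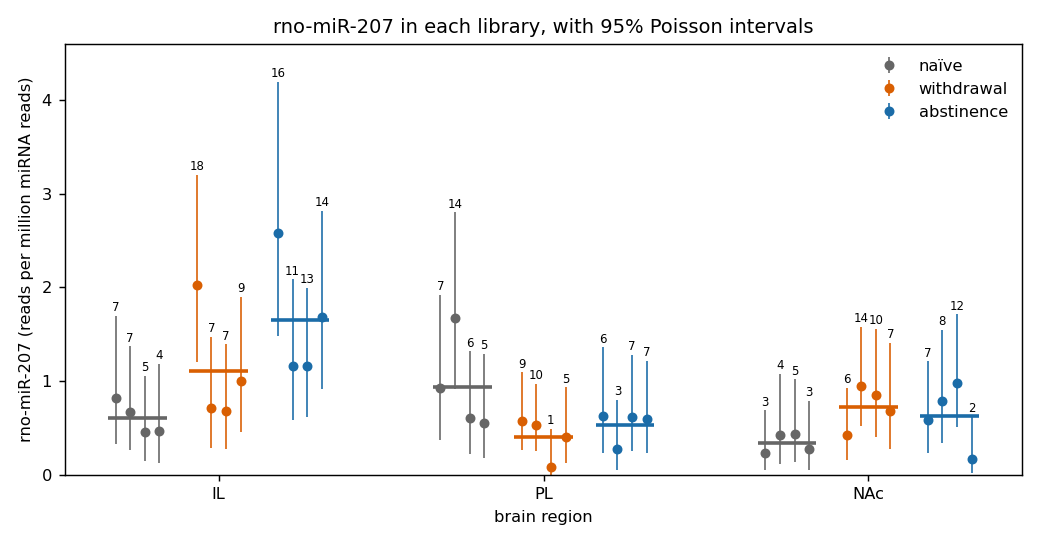
Level of rno-miR-207 in each of the 36 libraries, in CPM, by region and cocaine group. Points are libraries (rats in the order of the text), vertical lines are 95% Poisson intervals, numbers are read counts and horizontal bars are group means. The 4 abstinence rats of the IL lie between 1.17 and 2.58 CPM, above the naïve rats of that region, while in the PL the naïve mean (0.940 CPM) is the highest of the 3.

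The changes thus pointed up in the IL and NAc and down in the PL. For withdrawal against naïve, the IL change exceeded the PL change by 2.07 on the log2 scale (SE 0.68), and the PL change lay 2.13 below that of the NAc (difference -2.13, SE 0.68). The IL and NAc changes were close to each other, with a difference of -0.07 (SE 0.69). For abstinence against naïve, IL exceeded PL by 2.18 (SE 0.66), PL minus NAc was -1.65 (SE 0.69) and IL minus NAc was 0.53 (SE 0.69), the last from 0.14 to 0.93 with a rat left out. Without the 3 libraries that stand apart, the withdrawal differences were 1.44 (SE 0.68) for IL minus PL, -1.74 (SE 0.68) for PL minus NAc and -0.30 (SE 0.71) for IL minus NAc. The abstinence differences were then 2.08 (SE 0.62), -1.63 (SE 0.66) and 0.45 (SE 0.65). These differences chose the miRNA and carry no test. Among all miRNAs the medians of the same differences lay between -0.07 and 0.05.

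A 1.5-fold change with an unadjusted p under 0.05 was passed by 6.35% of all miRNAs for withdrawal in the IL, 4.81% in the PL and 2.84% in the NAc. For abstinence the shares were 8.32%, 2.41% and 1.09%, and for abstinence against withdrawal 6.35%, 3.5% and 0.875%. After Benjamini-Hochberg adjustment in edgeR's quasi-likelihood test, 0% of the 457 miRNAs passed in any of the 6 comparisons with naïve rats. These shares are the background of the comparisons that chose rno-miR-207, and nothing about it is read from them.

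**Figure D2:**
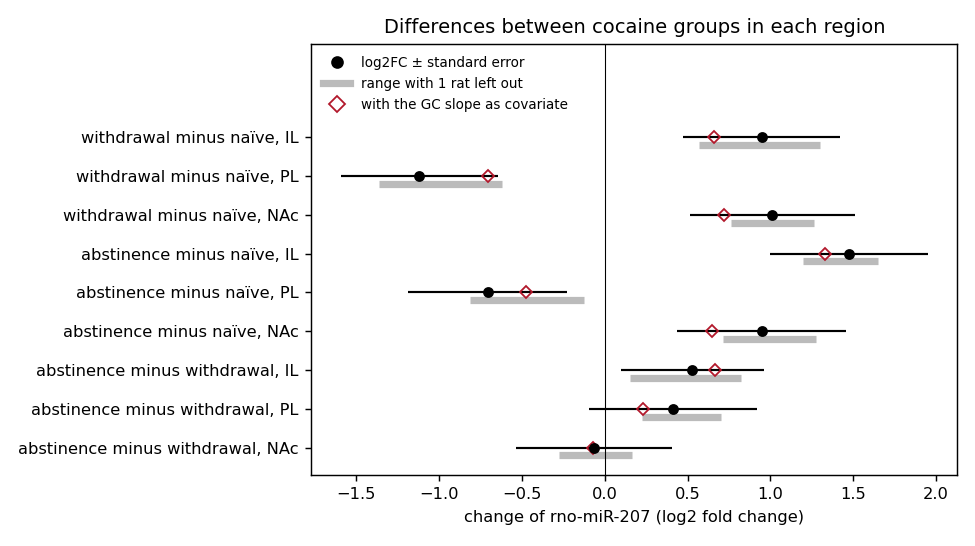
Differences in rno-miR-207 between cocaine groups within each region, as log2 fold changes. Black points and lines are the estimate and its standard error, grey bars span the estimates with each rat left out in turn, and open red diamonds are the estimates with the GC slope of the library as a covariate. The estimates against naïve are positive in the IL and NAc and negative in the PL, from -1.12 to 1.48, and keep their side of 0 in every setting drawn.

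Set in order, the 9 combinations of region and group ran from the IL of abstinence rats (mean log2 CPM 0.69 ± 0.45) through the IL of withdrawal rats (0.15 ± 0.67), the PL of naïve rats (-0.06 ± 0.58) and the IL of naïve rats (-0.58 ± 0.33) to the NAc of withdrawal rats (-0.64 ± 0.46). Below these came the PL (-0.76 ± 0.57) and NAc (-0.93 ± 0.91) of abstinence rats, the PL of withdrawal rats (-1.23 ± 0.93) and the NAc of naïve rats (-1.60 ± 0.41). None of the 8 steps between neighbours exceeded the larger standard deviation of the pair, the widest being 0.54.

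Averaged over the groups with equal weight, rno-miR-207 was highest in the IL. The 12 IL libraries held 118 reads (pooled 1.06 CPM, interval 0.873 to 1.26), the 12 PL libraries 80 (0.584, 0.463 to 0.727) and the 12 NAc libraries 81 (0.571, 0.454 to 0.710). The NAc level was 2.28-fold lower than the IL level (log2FC = -1.19, SE 0.27, adjusted p = 0.000202, edgeR's quasi-likelihood test with Benjamini-Hochberg adjustment over 457 miRNAs). In that contrast 74.8% of all miRNAs passed the same test and 34.6% passed with NAc lower, so a regional call is the common case here. In bulk tissue, fewer cells that hold the miRNA and less of it per cell cannot be told apart.

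The comparison within rats gave the same direction. The IL value exceeded the NAc value in 11 of 12 rats, with a mean NAc minus IL difference of -1.14 ± 0.96 (SD), and M172 was the exception. An exact two-sided sign-flip permutation test over the 12 rats gave p = 0.00146 (adjusted p = 0.00439 over the 3 pairs of regions, smallest possible p 0.000488). With any of the 12 rats left out, the edgeR call held, with estimates from -1.46 to -1.06.

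IL against PL was nearer the threshold. Its average covers opposite signs, with mean within-rat IL minus PL differences of -0.52 in naïve, 1.38 in withdrawal and 1.45 in abstinence rats. The call therefore rests on the cocaine groups, whose responses chose the miRNA. The log2FC was 0.70 (SE 0.27, adjusted p = 0.0392 in edgeR), where 34.1% of all miRNAs passed, 15.8% with IL higher. The IL value was higher in 9 of 12 rats, with a mean difference of 0.77 ± 1.08, and the exact sign-flip permutation test gave p = 0.0337 and an adjusted p of 0.0505. The edgeR call was lost without M170, M363, M154, M157, M476 or M480 in turn, with adjusted p between 0.0525 and 0.0940. It was also lost with the rat as a paired block (0.71, adjusted p = 0.0563) and without the libraries of M153 and M172 that stand apart (0.54, adjusted p = 0.115).

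NAc and PL did not pass (log2FC = -0.48, SE 0.28, adjusted p = 0.121 in edgeR, with 64.8% of all miRNAs passing). NAc was the higher in 5 of 12 rats, the mean difference was -0.37 ± 1.35, and the exact sign-flip permutation test gave p = 0.354. Without M172, or without the libraries of M153 and M172 that stand apart, the edgeR test did pass, at -0.68 (adjusted p = 0.0344) and -0.67 (adjusted p = 0.0306).

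Within rats, the order of the cortical regions differed by group, as the choice of this miRNA entails. IL exceeded PL in 1 of 4 naïve rats, and there by under 0.01 on the log2 scale, but in 4 of 4 withdrawal and 4 of 4 abstinence rats. The mean IL minus PL differences were -0.52, 1.38 and 1.45. IL exceeded NAc in 4, 3 and 4 of the 4 rats of each group, and PL exceeded NAc in 4 of 4 naïve, 1 of 4 withdrawal and 2 of 4 abstinence rats. Summed over the regions of a rat, rno-miR-207 came to 0.595 ± 0.203 CPM in naïve, 0.692 ± 0.132 in withdrawal and 0.853 ± 0.161 in abstinence rats (SD, n = 4 each), and these ranges overlapped.

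**Figure D3:**
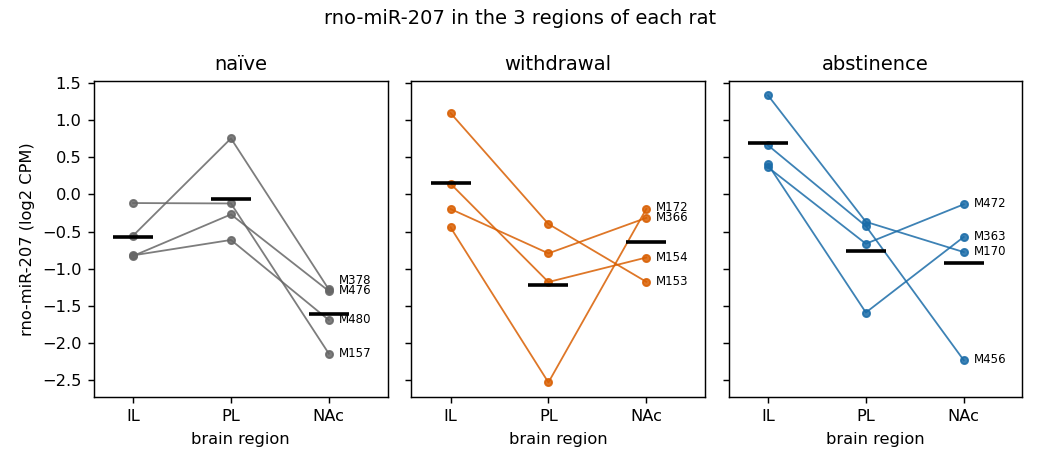
rno-miR-207 in the IL, PL and NAc of each rat, in log2 CPM, with a panel for each cocaine group. Each line joins the 3 libraries of a rat and black bars are group means. IL points lie above PL points in all 8 withdrawal and abstinence rats, while in naïve rats the PL mean (-0.06) is above the IL mean (-0.58).

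The level of rno-miR-207 moved with a property of the whole library. For each library, a GC slope was computed as the change in log2 CPM, relative to the mean of each miRNA over the libraries, per 10 percentage points of GC in the mature sequence, over 410 of the other miRNAs tested. A positive slope means that GC-rich miRNAs had relatively more reads in that library. IL libraries had a mean slope of 0.208 in naïve, 0.456 in withdrawal and 0.406 in abstinence rats. PL libraries had 0.185, -0.0752 and 0.131 in the same order, and NAc libraries -0.575, -0.403 and -0.333. So against naïve rats the mean slope of both cocaine groups moved the same way as rno-miR-207, up in the IL and NAc and down in the PL. The abstinence step in the PL was small beside the spread (SD 0.308 in naïve and 0.0948 in abstinence rats). The NAc abstinence mean (SD 0.365) includes M363 at 0.202, with the other rats from -0.571 to -0.400. Between the cocaine groups, the order of mean slopes was that of mean rno-miR-207 levels in the PL but the opposite in the IL and NAc.

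Over the 36 libraries, which share rats and differ in depth, the slope and rno-miR-207 had Pearson's r = 0.633 and Spearman's rho = 0.639, as a description. With region means taken off, r was 0.442, and with the means of each group and region taken off it was 0.239. The log2 library total had r = -0.494 with rno-miR-207 and r = -0.527 with the slope. The slope also nearly separates NAc (-0.883 to 0.202) from IL (0.0503 to 0.620), so with the slope in the model the standard error of the NAc minus IL difference grew from 0.27 to 0.55.

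In that model no regional call remained. NAc minus IL was -0.072 (adjusted p = 0.976 in edgeR), IL minus PL was 0.29 (adjusted p = 0.795) and NAc minus PL turned to 0.21 (adjusted p = 0.724). The changes against naïve kept their directions, at 0.66 (SE 0.46) for withdrawal and 1.33 (SE 0.44) for abstinence in the IL, -0.71 (SE 0.47) and -0.47 (SE 0.46) in the PL, and 0.72 (SE 0.48) and 0.65 (SE 0.49) in the NAc. The difference between the IL and PL changes was 1.37 (SE 0.69) for withdrawal and 1.80 (SE 0.63) for abstinence. With the log2 library total in the model instead, IL minus PL was 0.55 (adjusted p = 0.236).

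**Figure D4:**
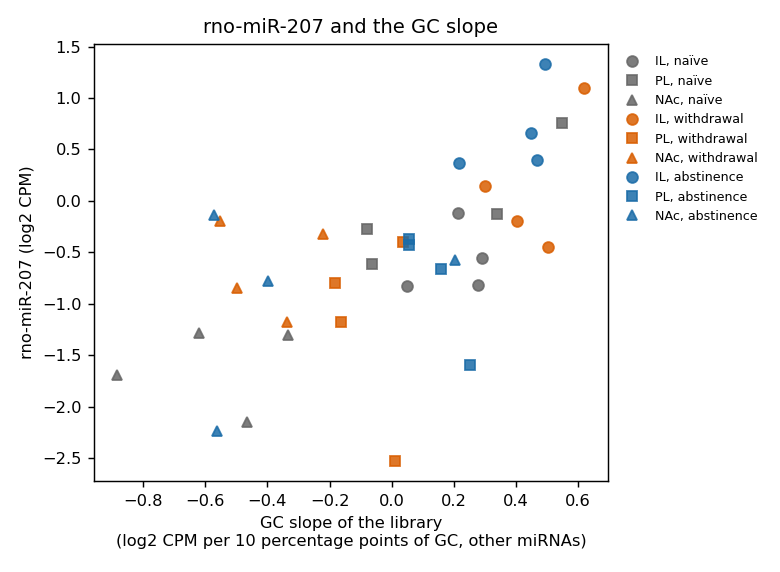
rno-miR-207 (log2 CPM, vertical axis) against the GC slope of the library (log2 CPM per 10 percentage points of GC, over other miRNAs, horizontal axis). Each point is 1 of the 36 libraries, with the shape giving the region and the colour the cocaine group. IL libraries have slopes from 0.0503 to 0.620 and most NAc libraries lie at the lower left, with r = 0.633 over all points.

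Marker sets of other cell types also differed between the regions. Vascular miRNAs (the miR-126a and miR-143/145 strands, 4 of 4 tested) summed to between 1548 and 4930 CPM in the IL, 1538 and 6576 CPM in the PL and 3108 and 13719 CPM in the NAc. For NAc against IL 3 of the 4 were called higher and 1 lower at a 1.5-fold change with an unadjusted p under 0.05, a threshold that 62.4% of all miRNAs passed, 33.7% with NAc higher and 28.7% with NAc lower. Their median log2FC was 1.24, against 0.12 over all miRNAs. Of the oligodendrocyte set 2 of 4 were tested, both strands of miR-338, which is abundant in myelinating cells, and both were called higher in the NAc than in the IL with a median of 1.61. Their sums ran from 547 to 1602 CPM in the IL, 468 to 1518 in the PL and 1003 to 2257 in the NAc. Choroid plexus and ependymal miRNAs had 7 of 8 tested and 0 called for NAc against IL at that threshold. Their sums ran from 1122 to 2413 CPM in the IL, 1032 to 1537 in the PL and 1917 to 2831 in the NAc. Only the IL library of M153 reached the NAc range, the other IL libraries having at most 1615 CPM. In this set rno-miR-204-5p was higher in the NAc by less than 1.5-fold (log2FC = 0.52, adjusted p = 0.000115 in edgeR). The immune and microglial set had 3 of 6 tested with 1 called higher and 1 lower. Of the epithelial set 6 of 8 were tested, with 3 called higher, and of the neuronal set 8 of 8, with 4 called higher and 2 lower. The part of these differences, of depth and of the GC slope in the regional levels of rno-miR-207 was not tested beyond the models given.

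Some marker miRNAs also passed the 1.5-fold threshold between cocaine groups. For withdrawal against naïve, 6 of the 6 epithelial miRNAs tested were called higher in the NAc, where 2.19% of all miRNAs were called higher, and 3 of 6 in the PL, where 1.53% were. The PL and NAc libraries of M172 belong to these comparisons. For abstinence against withdrawal, 6 of the 6 were called lower in the PL, 4 in the NAc and 1 in the IL, beside 2.84%, 0.875% and 3.28% of all miRNAs. The oligodendrocyte miRNA rno-miR-338-3p was called for withdrawal against naïve in both the PL (log2FC = 0.88) and the NAc (log2FC = -0.83), in each the opposite sign to rno-miR-207, where 1.53% were called higher and 0.656% lower. In the PL the immune miRNA rno-miR-150-5p (log2FC = -0.60) and 1 of 8 neuronal miRNAs, rno-miR-153-3p, were called lower for withdrawal, beside 3.28% of all. In the IL, rno-miR-34c-3p of the choroid plexus and ependymal set was called lower for abstinence against naïve (log2FC = -1.66), and the median of the 7 tested was -0.92. For abstinence against withdrawal there, 2 of these 7 were called lower and 2 of 8 neuronal miRNAs higher, beside 3.28% and 3.06% of all. The vascular set had 0 of 4 called in any comparison of groups. The neuronal set had 1 of 8 called higher and 1 lower for abstinence against naïve in the IL, beside 4.6% and 3.72% of all miRNAs. Its sum there was 198452 to 337301 CPM in abstinence and 282711 to 364746 CPM in naïve rats. The lowest neuronal sums of all were in the IL of M170 (198452 CPM), M456 (219266) and M153 (232000) and the PL of M378 (228616). These libraries also had the highest rno-miR-207 levels, at 2.58, 1.68, 2.02 and 1.67 CPM. The IL library of M170 was the shallowest of all (6192155 reads). The next lowest sum (234164 CPM, NAc of M363) went with 0.786 CPM of rno-miR-207. The PL of M172 had the highest neuronal sum (455913 CPM) and the lowest rno-miR-207 (0.0879 CPM). The part of these cell types in the changes of rno-miR-207 was not tested. RNA integrity (RIN, from 7.4 to 9.3) was in the model, and the fitted slope of rno-miR-207 was 0.32 on the log2 scale per unit of RIN, against a median absolute slope of 0.24 over all miRNAs.

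For miRNAs often studied with cocaine, 7 of 7 were tested and 0 were called in any change between groups, where the shares over all miRNAs were 0.875% to 8.32%. The set holds rno-miR-132-3p and rno-miR-212-3p, which are induced by the transcription factor CREB, rno-miR-124-3p, rno-miR-9a-5p, rno-miR-181a-5p, rno-let-7d-5p and rno-miR-206-3p. The paper, with limma-voom and the same threshold, lists rno-miR-9a-5p as higher in the PL of withdrawal than of naïve rats. Here its log2FC in that comparison was 0.63 (unadjusted p = 0.136 in edgeR). Their median log2FC for abstinence against naïve was -0.04 in the IL, -0.03 in the PL and 0.17 in the NAc, beside 0.02, -0.09 and 0.02 over all miRNAs. In the regional contrast of NAc and IL, 1 of the 7 was called higher and 4 lower, beside 33.7% and 28.7% of all miRNAs.

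Across the 36 libraries the miRNAs most like rno-miR-207 in log2 CPM were rno-let-7e-3p (r = 0.748), rno-miR-433-3p (r = 0.726), rno-miR-320-3p (r = 0.716), rno-miR-877 (r = 0.708) and rno-miR-668 (r = 0.70). rno-let-7e-3p is the minor strand of a let-7 precursor, and rno-miR-877 comes from a mirtron, a short intron that folds into a hairpin. The points share rats and libraries, with their depth and GC slope, and the median r over the other miRNAs tested was -0.06. After the mean of each region was taken off, the most like were rno-let-7e-3p (r = 0.634), rno-miR-1188-3p (r = 0.603), rno-miR-351-5p (r = 0.589), rno-miR-433-3p (r = 0.588) and rno-miR-505-5p (r = 0.579).

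These miRNAs differ widely in abundance. rno-miR-433-3p had mean log2 CPM values of 12.20, 12.59 and 12.76 in the IL of naïve, withdrawal and abstinence rats, 12.28, 11.73 and 12.01 in the PL, and 11.61, 11.85 and 11.96 in the NAc. Its order of groups in the IL and PL was that of rno-miR-207 at a far higher level. In the NAc its mean was highest in abstinence rats and that of rno-miR-207 in withdrawal rats. All these miRNAs were picked for likeness over the same libraries, so a shared order of groups follows in part from that choice. rno-miR-877 went from 5.09 to 5.43 and 5.72 in the IL, from 5.09 to 4.28 and 4.74 in the PL, and from 3.87 to 4.31 and 4.28 in the NAc. rno-let-7e-3p spanned less, from 6.12 to 6.28 and 6.30 in the IL, from 6.17 to 5.94 and 5.99 in the PL, and from 5.79 to 5.76 and 5.77 in the NAc.

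The miRNAs nearest to rno-miR-207 in mean level were set beside it. These were rno-miR-153-3p, rno-miR-34c-3p, rno-miR-299b-3p, rno-miR-3572 and rno-miR-540-5p, with median counts from 6 to 8.5 per library. For abstinence against naïve in the IL their log2FC was 2.39, -1.66, -0.45, 1.53 and -0.33, so rno-miR-207 at 1.48 lay within their range. In the NAc it lay outside it, at 1.01 against -0.77 to 0.29 for withdrawal and 0.95 against -0.49 to 0.31 for abstinence. The withdrawal difference of PL minus NAc was also outside, at -2.13 against -0.89 to 1.15. Since rno-miR-207 was chosen for such changes and these miRNAs only for their level, a place outside their range is no evidence about it. For withdrawal against naïve in the PL their values were -1.66, 0.11, 0.44, -0.36 and 0.45. rno-miR-3572 had 1.05 for withdrawal in the IL and -0.64 for abstinence in the PL, beside 0.95 and -0.71 for rno-miR-207, while its NAc values of -0.14 and -0.16 were unlike the 1.01 and 0.95 of rno-miR-207.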

How the data were processed

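The authors dissected frozen sections, made small RNA libraries and ran CAP-miRseq to align the reads and count those of each mature miRNA. The deposited values are raw counts for 36 libraries. The submitters' processing notes name the build mRatBN7.2 (rn7) and the methods an earlier one, so RefSeq GRCr8 was used for names, neighbours and sequences only. Rats were taken from the supplementary sample list by sample number, region, group and RIN, and 1 naïve NAc library not in the text of that list was tied to M480 by the design. Libraries of 1 rat are paired by animal. Their deviations from group means had median r of 0.265 (IL and PL), 0.147 (IL and NAc) and 0.267 (PL and NAc).

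The miRNA, the marker sets and the tests were chosen with earlier results of these data known. miRNAs were filtered with filterByExpr (minimum count 10, minimum total 15), which kept 457, scaled by TMM and fitted in edgeR 4.0.16 (R 4.3.3) by the quasi-likelihood model, with a mean for each of the 9 combinations of group and region and RIN as a covariate. The study used limma-voom, which was run as an alternative (limma 3.58.1), as was DESeq2 1.42.0. Levels are log2 CPM with a prior count of 0.5. Regional levels were also compared within rats by an exact sign-flip test. Scripts were tested on simulated data. The named miRNAs are the 5 most alike over libraries, the 5 most alike within regions, the 5 nearest in level, those sharing the seed and the members of the sets. No library was a duplicate of another of its group and region (0 of 54 pairs identical). Alternatives were other scalings, no filter, no RIN, other tools, a replicate block, each rat left out, libraries of RIN under 8 left out, and prior count 2. Leaving out the libraries of M153 and M172 that stand apart, and adding the GC slope or the log2 total, were chosen after seeing the data. Behavioral scores were not used here.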

Additional observations from a re-analysis of the deposited data

How the results depend on the processing

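NAc minus IL kept its direction and call in every alternative except the GC slope covariate (-0.072, adjusted p = 0.976, edgeR). With that covariate NAc minus PL reversed to 0.21, IL minus PL was 0.29 and not called, and for withdrawal the difference of changes was 1.37 for IL minus PL and -1.43 for PL minus NAc. IL minus PL also lost its edgeR call with no filter (0.68), with the rat as a fixed replicate block (0.71, adjusted p = 0.0563), without the IL library of M153 and the PL and NAc libraries of M172 (0.54) and with the log2 total (0.55). With the rat as a random block in limma-voom it was called (0.71, adjusted p = 0.0258). The block changed no other call. Without the same 3 libraries NAc minus PL was called (-0.67) and the withdrawal difference of IL minus PL was 1.44. Upper-quartile scaling also gave a call for NAc minus PL (-0.62). The paired IL minus PL difference passed the exact sign-flip test with RLE scaling (0.79), upper-quartile scaling (0.80) and no filter (0.76). With 1 rat left out, NAc minus PL ran from -0.70 to -0.38, IL minus PL from 0.62 to 0.88 and the paired IL minus PL difference from 0.66 to 1.00. The causes were not tested. The changes against naïve kept their sign in all alternatives, while abstinence minus withdrawal in the NAc and the withdrawal difference of IL minus NAc, both near 0, changed sign in 6 each. Fits of the PL or NAc libraries alone gave no value, since the filter then removed rno-miR-207. Counts of 1 to 18 reads limit every value here.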
